A study of Mus musculus with 6 samples.

Results

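The genes described here encode the proteins of the cytosolic ribosome. They were taken by symbol, as every row of the FPKM table named Rpl or Rps with a number and at most 1 letter from a, x, y or l, together with Rplp0, Rplp1, Rplp2 and Rpsa. This gave 81 of the 24354 rows, 49 of the large subunit and 32 of the small subunit, with 5 paralogues (Rpl3l, Rpl10l, Rpl39l, Rps27l and Rps4l) among them. Libraries of ribosome-bound mRNA were made from the choroid plexus (ChP) of adult mice and of embryos at E16.5, with 3 libraries per age. All mice carried Foxj1:cre and the bacTRAP transgene EGFP:L10a, so that both ages share the tag, and no treatment is given. In TRAP (translating ribosome affinity purification) ribosomes that carry the tagged protein L10a are pulled down with the mRNA on them, and Cre under the Foxj1 promoter limits the tag to cells in which that promoter has been active. The labels give 60 days for the adults, where the study's methods give 8 weeks, with tissue collected at 9 am. The methods describe each library as a pool of several mice or litters, whereas the series text counts 3 mice at each age. The number of animals behind a library is therefore open, and the p-values measure the spread between these libraries.

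A ribosome has a small subunit, which reads the mRNA, and a large subunit, which joins the amino acids, and nearly every protein of either is present in a single copy. The mRNAs of these proteins begin with a run of pyrimidines (the TOP motif), through which mTORC1 and the RNA-binding protein Larp1 adjust their translation together, and MYC raises their transcription in growing cells. The genes have also left many processed pseudogenes, intronless copies of their mRNA that lie elsewhere in the genome, more than most other gene families. In the choroid plexus, an epithelium that makes cerebrospinal fluid and secretes proteins into it, ribosomes carry a large load of secretory protein synthesis.

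The libraries differed in depth and content between the ages. Low values lay near whole multiples of a smallest step, taken as 1 read. By this step a read in a kilobase of transcript was worth 0.114 to 0.324 FPKM in the adult libraries and 0.0638 to 0.0806 FPKM in the E16.5 libraries, so that adult replicate 3, the shallowest, was exceeded 1.26 and 2.86 times by the other adult libraries and 4.02 to 5.08 times by the E16.5 libraries. The single gene Mir6236 took 32.7% to 51.7% of the summed FPKM in adult and 13.3% to 15.002% at E16.5. The summed FPKM of 12 epithelial markers was 39616 to 54527 in adult and 3396 to 4055 at E16.5, where Ttr, a defining marker of this epithelium, was listed at 0 in every library. An exact 0 can be a failed estimate, so these zeros are not read as a lack of Ttr mRNA. Without Ttr and Enpp2, the 2 largest, the sum was 3761 to 4493 in adult and 3122 to 3813 at E16.5, with overlap. Of the 12, 5, with Ttr among them, were called higher in adult and 2, Foxj1 and Otx2, higher at E16.5, and 6 had a negative change. Sums of markers of other cells went the other way, without overlap, for 7 mesenchyme and fibroblast genes (13.3 to 22.0 FPKM in adult, 58.6 to 69.4 at E16.5), 9 neuron and progenitor genes (3.38 to 9.88 against 30.0 to 120), 5 red blood cell genes (0 to 6.49 against 54.1 to 324) and 7 cell cycle genes (4.83 to 45.8 against 53.4 to 96.9). They overlapped for 6 endothelial genes (0.435 to 18.5 against 12.3 to 39.95) and 7 macrophage genes (0.0695 to 6.82 against 0.584 to 8.42). Of the neuron and progenitor sum, Sox2 gave 26.3, 25.3 and 26.4 FPKM in E16.5 replicates 1, 2 and 3. Tubb3 gave 36.2, 0.623 and 0.134 FPKM there and Stmn2 25.3, 0 and 0, so that both were high in E16.5 replicate 1 alone. The marker sums that moved with age did so beside every result below, and their part in it was not tested. In bulk libraries, fewer cells of a kind and less RNA per cell cannot be told apart.

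Summed ribosomal protein mRNA was higher at E16.5 in every library, and no member was called higher in adult. The summed FPKM of the 81 members was 1309, 1842 and 2928 in adult replicates 1, 2 and 3 and 5758, 6124 and 5661 in E16.5 replicates 1, 2 and 3, so that every adult library lay below every E16.5 library. As a share of all FPKM without Mir6236, the members took 0.252%, 0.332% and 0.585% in adult and 1.14%, 1.18% and 1.45% at E16.5. At E16.5, 15 members exceeded 100 FPKM in all 3 libraries, 7 of the large and 8 of the small subunit. In adult only Rpl41 did so in all 3 libraries.

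**Figure D1:**
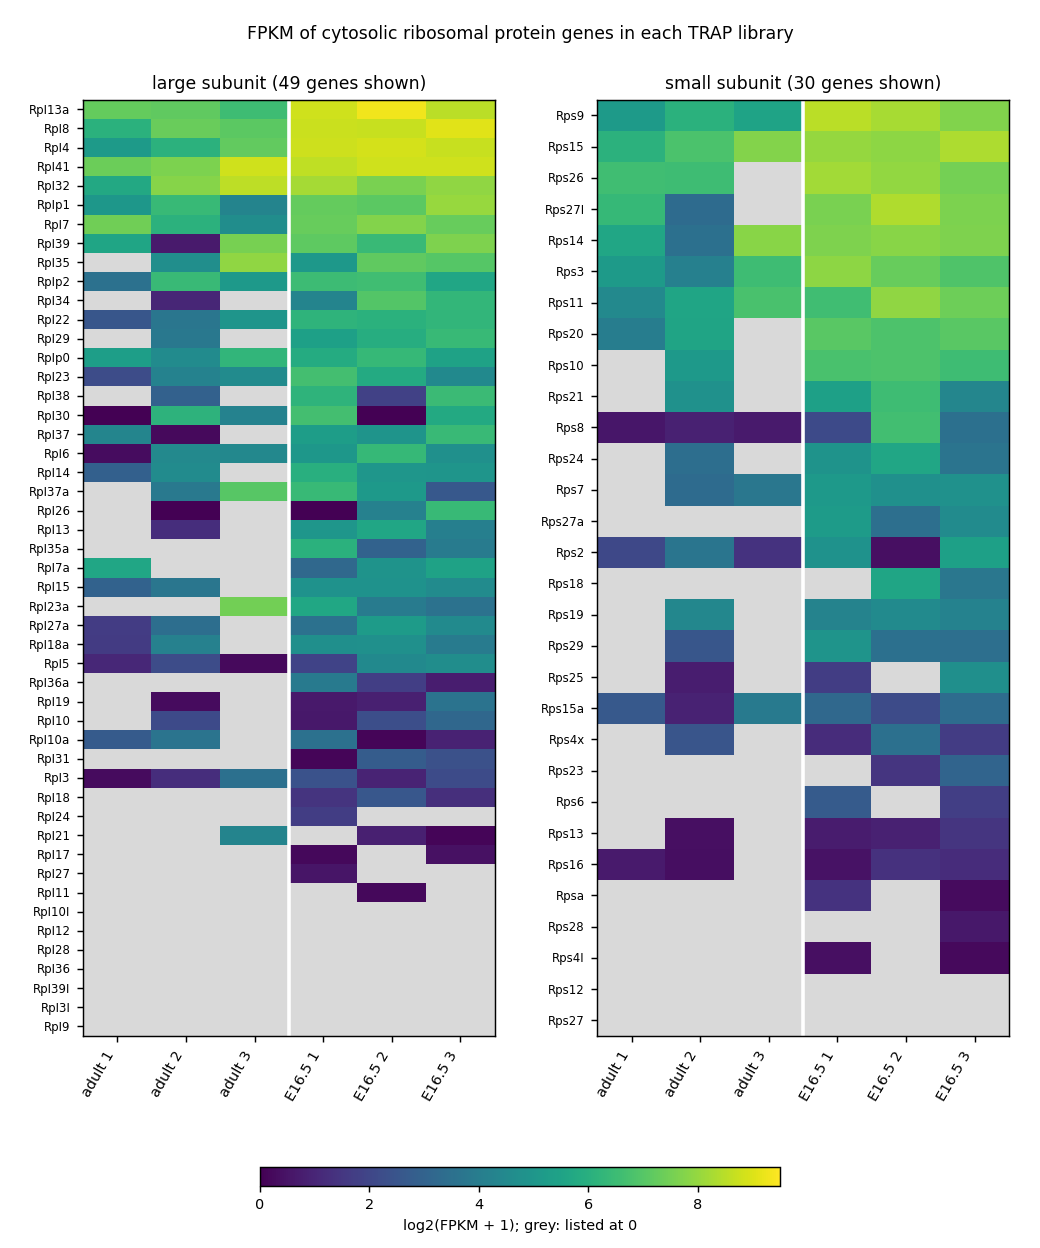
Each row is 1 of 79 ribosomal protein genes shown of the 81, ordered by its mean at E16.5 within the large (left) and the small subunit (right), and each column is 1 library. Colour gives log2(FPKM + 1), and grey marks a gene listed at 0. The 3 adult columns hold 44, 27 and 50 grey cells and the 3 E16.5 columns 14, 17 and 12.

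Genes with a mean above 1 FPKM over the 6 libraries were compared between the ages with limma on log2(FPKM + 1), with p adjusted over all 11601 genes tested. Of the members, 63 passed this filter, 38 of the large and 25 of the small subunit, and 18 did not. Of those tested, 9 were listed at 0 in every adult library, beside 749 of all 11601 genes, and so passed through their E16.5 values alone. At an adjusted p under 0.05, 14 of the 63 were higher at E16.5, where 8.83% of all genes tested were, and 0 were higher in adult, where 2.12% of all genes were. At an unadjusted p under 0.05, 37 members were higher at E16.5 (25.9% of all genes) and 0 in adult. Every adult library lay below every E16.5 library in 32 of the 63, against 31.0% of all genes tested, and above in 0, against 7.39%. The median change over the members tested, adult minus E16.5, was -2.31 on the log2 scale, and the median over all genes tested was itself -0.86. Against that general shift, 55 of the 63 members lay below the median of all genes and 8 above it. The calls needed all 3 E16.5 libraries. Without replicates 1, 2 and 3 of that age, limma called 57, 43 and 112 genes in all, and 1, 0 and 1 members higher at E16.5, with 28, 24 and 23 members at an unadjusted p under 0.05. When the test was limited to genes above 0 in every library, 7 of 25 members were higher at E16.5, where 6.87% of those genes were.

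Among the members called, Rpl4, Rpl8 and Rpl13a were abundant at both ages. Rpl4, which lines the tunnel through which the new chain leaves the large subunit, had 34.8, 68.3 and 147 FPKM in adult and 439, 467 and 412 at E16.5. The 3 embryonic libraries lay close together and well above the adult ones, which themselves spread over a wide range. The change was -2.62 (SE 0.48, adjusted p = 0.0213), and the mean was 5.27-fold higher at E16.5. Rpl8, at the peptidyl transferase centre, had 66.3, 158 and 136 FPKM in adult and 431, 417 and 539 at E16.5. Its change of -2.02 (SE 0.36, adjusted p = 0.0190) came again without overlap. Rpl13a, a surface protein that can leave the ribosome in interferon signalling, had 152, 143 and 92.1 FPKM in adult and 452, 631 and 365 at E16.5. It had the highest mean of all members at E16.5 (483 ± 136 FPKM, SD, n = 3) and a change of -1.89 (SE 0.32, adjusted p = 0.0151).

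Other members of the large subunit were called from adult values near 0. Rpl34 had the largest change of all members tested, with 0, 1.03 and 0 FPKM in adult and 18.4, 122 and 77.7 at E16.5 (-5.50, SE 0.81, adjusted p = 0.0107). Rpl29 had 0, 13.1 and 0 FPKM in adult and 40.7, 59.6 and 82.4 at E16.5 (-4.62, SE 1.05, adjusted p = 0.0358). In both, adult replicate 2, the deepest adult library, was the only adult library above 0. Rpl13 showed the same layout, at 0, 1.37 and 0 FPKM against 30.6, 48.0 and 16.3 (-4.49, SE 0.71, adjusted p = 0.0130). Rpl35a was listed at 0 in all adult libraries and had 66.7, 6.89 and 14.6 FPKM at E16.5 (adjusted p = 0.0272). Rpl22, which also binds small viral RNAs and whose loss mice survive, was above 0 throughout, with 4.84, 12.2 and 30.0 FPKM in adult and 70.7, 65.6 and 74.8 at E16.5 (-2.42, SE 0.60, adjusted p = 0.0447). This limma call held in 4 of 16 alternative settings and was lost, among others, with a pseudocount of 0.1 or 0.01, no filter, median-ratio scaling, quantile normalization and no trend (adjusted p from 0.00773 to 0.143 over the 16). The call of Rpl29 held in 8 of 15 (adjusted p from 0.00494 to 0.134) and was lost, among others, with either other pseudocount and no filter. The adult values of Rpl22 spread over a wide range, and its E16.5 values hardly varied.

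**Figure D2:**
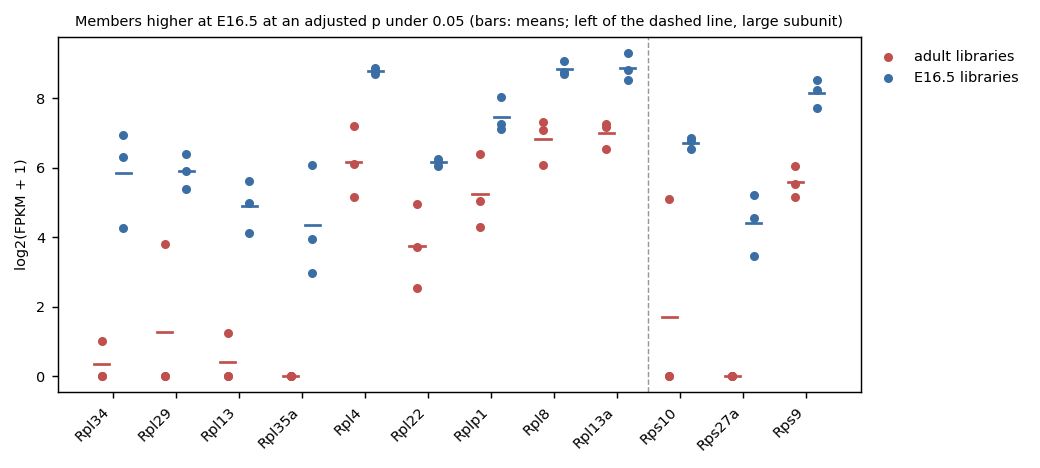
Points give log2(FPKM + 1) of 12 of the 14 members with an adjusted p under 0.05 in each adult (red) and E16.5 library (blue), and bars the mean of 3 libraries. The genes left of the dashed line belong to the large subunit. No adult point reaches an E16.5 point of the same gene, and in Rpl35a and Rps27a all adult points lie at 0.

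In the small subunit, Rps9 was called with the smallest adjusted p of all members. Rps9, near the entry of the mRNA channel, had 34.7, 65.7 and 45.1 FPKM in adult and 368, 303 and 209 at E16.5 (-2.58, SE 0.35, adjusted p = 0.00795, 6.05-fold by the means). The ages did not overlap, and the gene was above 0 in every library. Rps10, in the head of the subunit, had 0, 33.3 and 0 FPKM in adult and 108, 115 and 92.9 at E16.5 (-5.02, SE 1.29, adjusted p = 0.0480). Its limma call held in 5 of 15 alternative settings (adjusted p from 0.00261 to 0.164) and was lost, among others, with either other pseudocount, no filter, median-ratio scaling and no trend, where that of Rps9 held in 14 of 16. Rps27a, made as a fusion of ubiquitin with a ribosomal protein, was listed at 0 in adult and had 36.3, 10.02 and 22.7 FPKM at E16.5 (adjusted p = 0.0128). Where every library of an age was listed at 0, no fold is given, since an exact 0 can be a failed estimate.

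Of the 3 highest members of each subunit in adult ChP, only Rpl13a was called. Rpl41, a very short protein at the interface of the subunits, had 165, 195 and 447 FPKM in adult and 380, 447 and 454 at E16.5. Its ages overlapped at the upper end (-0.80, SE 0.39, adjusted p = 0.197). Rpl32 had 51.8, 215 and 373 FPKM in adult and 296, 190 and 241 at E16.5, with adult replicate 3 above all embryonic libraries (-0.56, SE 0.66, adjusted p = 0.580). In the small subunit, Rps15, which reaches into the decoding site, had 67.3, 113 and 214 FPKM in adult and 257, 235.2 and 321 at E16.5. The ages did not overlap, but the change of -1.18 (SE 0.42) missed the threshold at an adjusted p of 0.108. Rps14, on the platform of the subunit, had 48.6, 10.3 and 223 FPKM in adult and 203, 224 and 200 at E16.5 (adjusted p = 0.177). Rps26, which touches the mRNA upstream of the start codon, had 95.0, 92.7 and 0 FPKM in adult and 292, 246 and 184 at E16.5 (adjusted p = 0.183). The adult libraries disagreed over these genes far more than the embryonic ones did. Over the members tested, the median SD of log2(FPKM + 1) was 1.40 among adult and 0.77 among E16.5 libraries, beside 0.98 and 0.45 over all genes tested.

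Of the 3 proteins of the ribosomal stalk, where elongation factors dock, 1 was called. Rplp0, the base of the stalk, had 38.8, 23.2 and 75.9 FPKM in adult and 56.2, 80.4 and 43.3 at E16.5. Its ages overlapped (-0.49, SE 0.49, adjusted p = 0.505). Rplp1, a tip protein, had 31.8, 83.6 and 18.5 FPKM in adult and 151, 138 and 263 at E16.5, and was called higher at E16.5 (-2.23, SE 0.56, adjusted p = 0.0449). The limma call held in 4 of 16 alternative settings (adjusted p from 0.0141 to 0.152) and was lost, among others, with either other pseudocount, no filter, median-ratio scaling, quantile normalization and no trend. Its partner Rplp2 had 10.7, 85.0 and 34.4 FPKM in adult and 91.2, 94.7 and 48.0 at E16.5, and was not called (-1.20, SE 0.70, adjusted p = 0.277). Whether the stalk genes differed from each other was not tested. Of the pair that binds 5S rRNA and, when free, the p53 regulator Mdm2, Rpl5 had 1.08, 3.62 and 0.180 FPKM in adult and 2.72, 21.9 and 23.9 at E16.5 (-2.52, SE 0.96, adjusted p = 0.126). Rpl11 was listed at 0 in 5 libraries and at 0.162 FPKM in E16.5 replicate 2, and was not tested. Rps6, the classic substrate of S6 kinase, was listed at 0 in adult and at 5.62, 0 and 2.39 FPKM at E16.5 (adjusted p = 0.218). Rpsa, also known as a laminin receptor precursor, was listed at 0 in adult and at 1.63, 0 and 0.204 FPKM at E16.5, under the filter.

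Rpl10a is the endogenous gene of the tagged protein and part of the stalk over the exit site of the ribosome. It was low among the members tested, with 5.70, 11.5 and 0 FPKM in adult and 10.6, 0.101 and 0.866 at E16.5. The highest values of the ages were alike, and the change of +0.61 (SE 1.24, adjusted p = 0.759) was smaller than its error. With Rpl21 (0, 0 and 18.8 FPKM in adult, 0, 0.802 and 0.0820 at E16.5, adjusted p = 0.531) it was 1 of 2 members tested with a positive change, and in Rpl21 adult replicate 3 alone made it so. For Rpl10a, the change turned negative with a pseudocount of 0.01 (-0.21), and without adult replicate 2 (-0.15) or E16.5 replicate 2 (-0.08). The table has a single row for Rpl10a, and reads of the transgene and of the gene cannot be told apart in it. The gene lies at chr17:28328471-28331033, plus strand, of mm10, and its 651-base coding sequence is identical at all 651 bases to the annotated pseudogene Rpl10a-ps1 at chr1:64993951-64994604, minus strand. Their first 100 bases are shown because they are the case in which no read within the coding sequence can be assigned by its letters. No base is in capitals, since capitals would mark a difference.

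Rpl10a: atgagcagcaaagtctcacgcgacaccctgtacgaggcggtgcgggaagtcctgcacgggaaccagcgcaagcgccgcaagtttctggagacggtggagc
Rpl10a-ps1: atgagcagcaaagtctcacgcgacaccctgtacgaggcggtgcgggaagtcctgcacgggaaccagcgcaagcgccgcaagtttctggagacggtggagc

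Paralogue pairs were listed at unlike levels. Rps27 was listed at 0 in all 6 libraries, while its paralogue Rps27l, a p53 target, had 80.3, 9.09 and 0 FPKM in adult and 192, 327 and 194 at E16.5. Rps27l was thus among the 5 most abundant small subunit members at E16.5, where its libraries all lay above the adult ones. Its change of -4.63 (SE 1.37) missed the threshold at an adjusted p of 0.0696. The coding sequences of the pair have 252 bases each and differ at 60 of them, with no identical run longer than 11 bases, so that no 50-base read fits both. By contrast, 98.6% of the 50-base stretches of the Rps27 transcript, but 22.4% of those of Rps27l, also occur in a gene elsewhere. Both coding sequences are given with the bases that differ between them in capitals.

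Rps27: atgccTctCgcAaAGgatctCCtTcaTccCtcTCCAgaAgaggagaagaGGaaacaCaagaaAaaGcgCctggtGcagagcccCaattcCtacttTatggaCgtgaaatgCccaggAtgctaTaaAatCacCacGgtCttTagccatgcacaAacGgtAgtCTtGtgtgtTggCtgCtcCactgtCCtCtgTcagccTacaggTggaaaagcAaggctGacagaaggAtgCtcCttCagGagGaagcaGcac
Rps27l: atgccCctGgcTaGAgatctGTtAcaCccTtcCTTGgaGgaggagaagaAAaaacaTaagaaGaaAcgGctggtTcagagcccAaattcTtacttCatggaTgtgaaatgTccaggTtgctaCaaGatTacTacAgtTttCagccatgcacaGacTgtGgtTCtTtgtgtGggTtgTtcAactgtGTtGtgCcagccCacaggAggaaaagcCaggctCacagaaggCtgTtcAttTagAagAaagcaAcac

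Of the other paralogues, Rpl3l, known from muscle, and Rpl10l and Rpl39l, known from testis, were listed at 0 in every library. Their partners were present. Rpl3 had 0.220, 1.36 and 10.4 FPKM in adult and 4.20, 0.927 and 3.51 at E16.5, so that the ages overlapped (-0.15, SE 0.96, adjusted p = 0.924). Rpl10 had 0, 3.43 and 0 FPKM in adult and 0.539, 3.84 and 7.91 at E16.5 (adjusted p = 0.367). Rpl39 had 46.9, 0.592 and 185 FPKM in adult and 139, 85.2 and 200 at E16.5 (adjusted p = 0.302), and its low value fell in the deepest adult library. X-linked Rps4x had 0, 4.69 and 0 FPKM in adult and 1.30, 10.3 and 2.22 at E16.5 (adjusted p = 0.389), while Rps4l stayed under the filter with at most 0.324 FPKM. Paralogues whose symbols fall outside the rule are set beside their partners. Rpl22l1 had 0.933, 3.30 and 0 FPKM in adult and 90.0, 176 and 15.4 at E16.5 and was called higher at E16.5 (-4.98, adjusted p = 0.0243). Rpl36al had 0.814, 84.2 and 5.21 FPKM in adult and 241, 197 and 99.5 at E16.5 (adjusted p = 0.0757), against 0, 0 and 0 and 13.7, 2.43 and 0.713 in Rpl36a (adjusted p = 0.134). Rpl7 had 174, 68.6 and 24.2 FPKM in adult and 156, 211 and 155 at E16.5 (adjusted p = 0.191), above Rpl7l1 at 10.2, 15.8 and 0 and at 40.9, 37.0 and 25.3 (adjusted p = 0.134).

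The subunits were then set against each other. Over the members tested the median change was -2.18 for the 38 of the large and -2.87 for the 25 of the small subunit, or -1.32 and -2.02 below the median of all genes. Of the small subunit 24 of 25 lay below that median, and of the large subunit 31 of 38. The calls were spread over both, with 9 of 38 (23.7%) and 5 of 25 (20%) higher at E16.5, beside 8.83% of all genes tested. The adult libraries lay below all E16.5 libraries in 18 (47.4%) and 14 (56%), beside 31.0% of all genes. Limited to genes above 0 in every library, the medians came close together, at -1.94 over 16 large and -2.06 over 9 small subunit members, beside -0.38 over all such genes. In this set the gap between the medians was 0.12, where it was 0.70 over all members tested. No test was made of the difference between the subunits, as the members are not replicates.

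**Figure D3:**
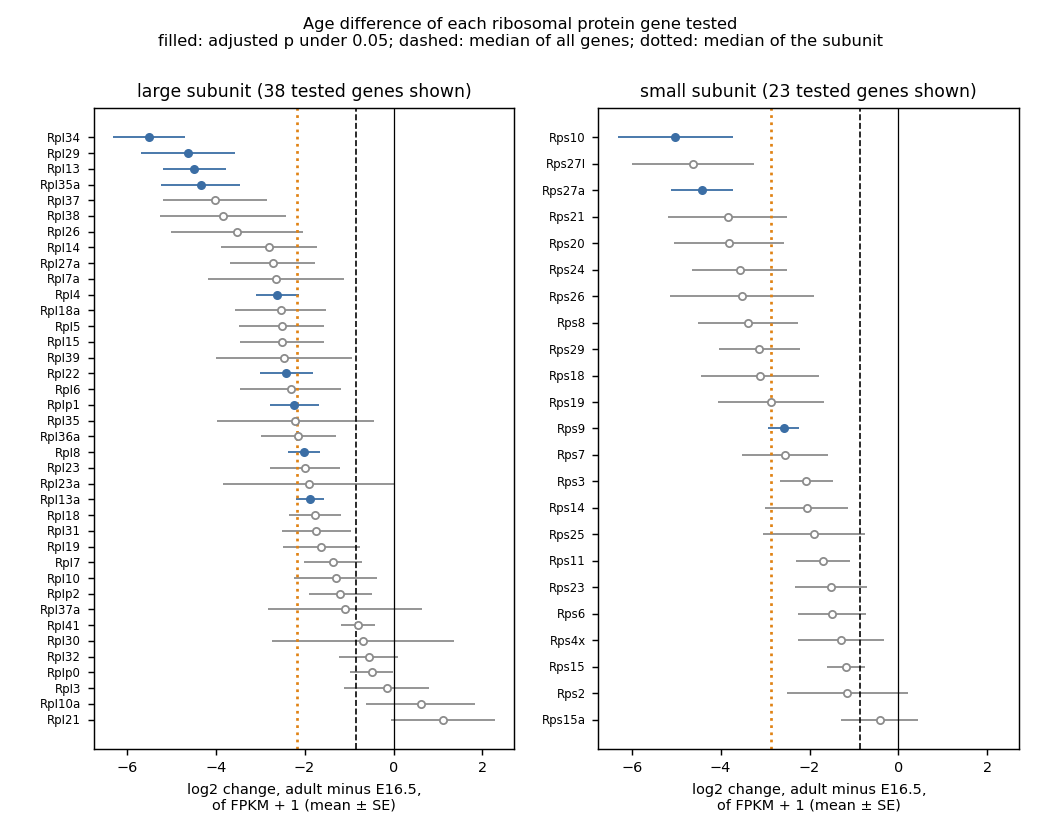
Points give the log2 change of FPKM + 1, adult minus E16.5, of 61 of the 63 members tested, with its standard error from limma, for the large (left) and small subunit (right). Filled points passed an adjusted p of 0.05, the dashed line marks the median of all genes (-0.86) and the dotted lines the medians of the subunits (-2.18 and -2.87). All but Rpl10a and Rpl21 lie left of 0 in this fit, while Rpl3, Rpl30 and Rps15a crossed 0 with quantile normalization, and Rpl3 with median-ratio scaling.

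In summed levels, the large subunit exceeded the small subunit in every library. The ratio of the sums was 2.01, 2.43 and 3.05 in adult and 1.55, 1.46 and 1.85 at E16.5, without overlap between the ages. With Rpl41 left out, the ratio was 1.63, 2.065 and 2.435 against 1.38, 1.28 and 1.62, and the ages still did not overlap, by a narrow margin. With Rpl32, Rpl35, Rpl23a and Rpl39 left out as well, the ratio was 1.40, 1.62 and 1.08 against 1.15, 1.10 and 1.33. The ages then overlapped, with adult replicate 3 below every E16.5 library. Rpl41, Rpl32, Rpl35, Rpl39 and Rpl23a were the large-subunit members with the largest shares of the members' sum in adult replicate 3 (6.12% to 15.3%). The small-subunit members Rps14 and Rps15, with 7.62% and 7.32% of it, were kept. Such a choice by itself lowers the ratio of that library, so nothing is concluded from its place. Over the 25 members above 0 in every library it was 3.21, 4.16 and 2.30 in adult and 2.185, 2.12 and 2.46 at E16.5, with overlap. The 5 most abundant members of a library held 44.7% to 51.2% of the members' sum in adult and 36.0% to 37.4% at E16.5.

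**Figure D4:**
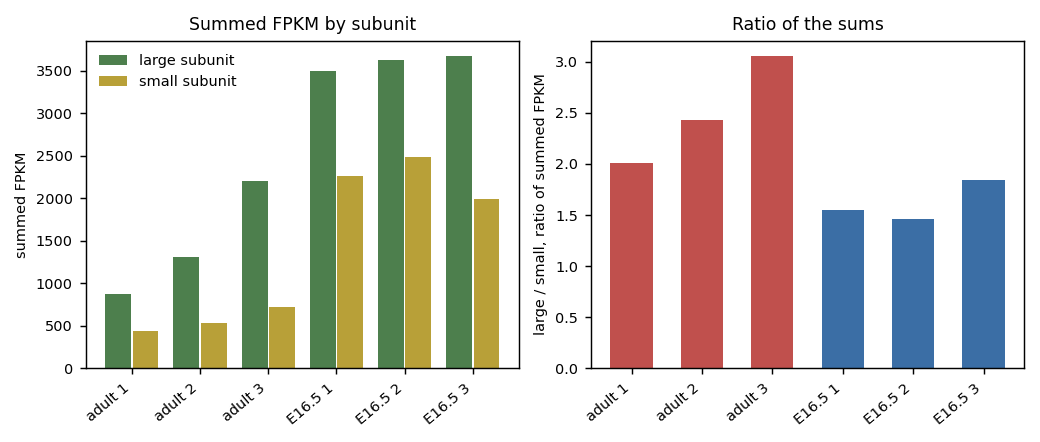
The left panel gives the summed FPKM of the 49 large and 32 small subunit members in each library, and the right panel the ratio of these sums. Sums are lower in all 3 adult libraries, and the ratio runs from 2.01 to 3.05 in adult and from 1.46 to 1.85 at E16.5.

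Exact zeros were common among the members. Of the 81, 9 were listed at 0 in all 6 libraries (Rpl9, Rpl12, Rpl28, Rpl36, Rps12 and Rps27, and the paralogues Rpl3l, Rpl10l and Rpl39l), and 25 were above 0 in all 6. A further 16, 8 of each subunit, were listed at 0 in all adult libraries and above 0 in at least 1 at E16.5, and 0 members showed the opposite. Of the genes tested, 9 of the 63 members and 749 of all 11601 genes were listed at 0 in every adult library. The opposite was not counted over all genes. Among the 63 tested, 44.4%, 19.0% and 52.4% were listed at 0 in adult replicates 1, 2 and 3 and 4.76%, 3.17% and 0% in the E16.5 replicates. Over all genes tested these shares were 22.0%, 10.3% and 36.4% and 3.88%, 3.68% and 4.02%. The ordering of the adult libraries by zeros followed their depth, and the excess of the members over other genes stood in the adult libraries. A few values were too small to come from a whole read. Rpl30 had 0.000384, 70.1 and 17.6 FPKM in adult and 100.6, 0.0000954 and 53.1 at E16.5, and Rpl26 had 0, 0.000671 and 0 in adult and 0.000534, 17.0 and 84.3 at E16.5. A read in any member's transcript was worth at least 0.0124 FPKM in the deepest library.

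Levels differed with the share of a member's sequence that is found elsewhere. For each member the share of the 50-base stretches of its transcript, the length of a read, that also occur in an annotated gene elsewhere in the genome was counted on both strands. Over the 76 members that are not paralogues, Spearman's rho of this share with the mean FPKM was -0.61 at E16.5 and -0.61 in adult, across genes that share the libraries and the counting. With the age change of the 62 of them tested, rho was 0.06, and transcript length had a rho of 0.02 with the E16.5 level. The 10 members with under 25% of shared stretches had a median of 135 FPKM at E16.5 and 34.2 in adult. Among them, Rps15a and Rps20 were counted on transcripts of 5130 and 3706 bases, with coding sequences of 390 and 357 bases. The share of the coding part alone was not counted. In the 20 members with 75% or more, the medians were 3.97 and 0.0343 FPKM. Between them lay the 25 members with 25% to 50% (51.5 and 14.8 FPKM) and the 21 with 50% to 75% (23.0 and 0.235 FPKM). Of the members over 100 FPKM on average at E16.5, 7 had under 25%, 9 had 25% to 50%, 2 had 50% to 75% and 0 had more. The median age change varied less, at -2.44, -2.36, -2.31 and -1.90 from the lowest to the highest share. The calls were 5 of 10, 2 of 22, 5 of 17 and 2 of 13 members tested, beside 8.83% of all genes tested. In the highest class 13 of the 20 members were tested, and adult values near 0 bound the change on this scale. How the authors' counting treated reads with several matches is not given in the sources used here, and its part in the levels was not tested.

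**Figure D5:**
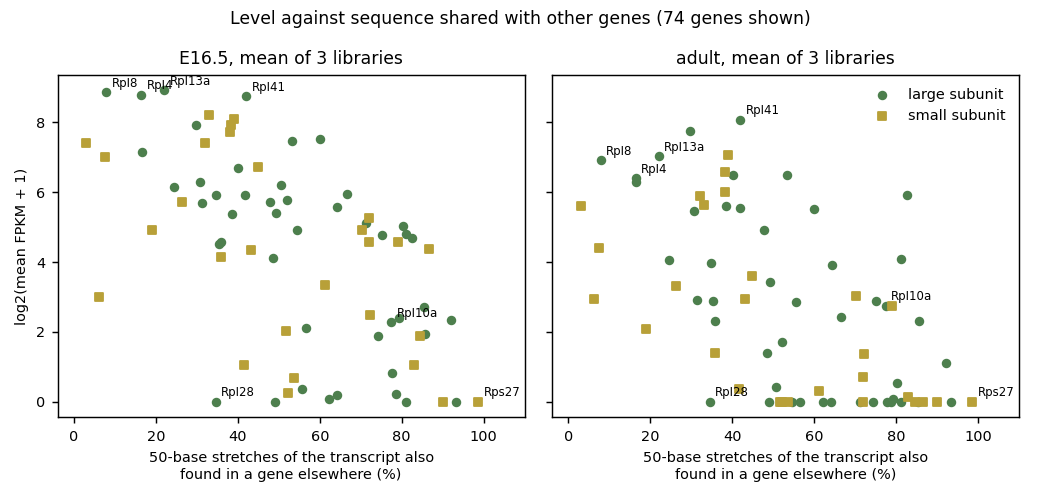
Each point is 1 of 74 of the 76 members that are not paralogues, by the share of its 50-base transcript stretches that also occur in a gene elsewhere (horizontal axis, percent) and log2 of its mean FPKM + 1 in 3 libraries (vertical axis), at E16.5 on the left and in adult on the right. Levels decline to the right at both ages, with Rpl28 low at a small share and Rps27 at 0 at the highest share.

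The coding stretches of read length that occur in the largest number of other genes make the range visible. The stretch of Rpl4 (chr9:64173375-64178666, plus strand, mm10) lies in 1 other annotated gene, a pseudogene. The stretch of Rps12 (chr10:23785183-23787275, minus strand), a gene listed at 0 throughout, lies in 22 other genes, 20 of them annotated pseudogenes. That of Rps2 (chr17:24718116-24721929, plus strand) lies in 33 pseudogenes, and that of Rpl7a (chr2:26910764-26913318, plus strand) in 45 other genes, 42 of them pseudogenes. Each stretch is given whole in lower case, since all of it is shared.

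Rpl4: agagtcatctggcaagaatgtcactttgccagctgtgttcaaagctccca
Rps12: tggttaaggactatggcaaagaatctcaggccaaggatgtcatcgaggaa
Rps2: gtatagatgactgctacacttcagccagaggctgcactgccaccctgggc
Rpl7a: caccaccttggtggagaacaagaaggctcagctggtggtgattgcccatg

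Many copies elsewhere did not mean a value of 0. Rps2, which lines the mRNA channel, had 3.21, 12.04 and 1.64 FPKM in adult and 27.6, 0.318 and 40.9 at E16.5 (adjusted p = 0.579), with E16.5 replicate 2 below all adult libraries. Rpl7a had 48.3, 0 and 0 FPKM in adult and 8.20, 28.3 and 43.5 at E16.5 (adjusted p = 0.271). Both overlapped between the ages, while Rpl4 did not. Rpl28 and Rpl12, listed at 0 throughout, had shares of 34.5% and 49.0%, so that a high share was not common to all members at 0. The 80 members with a location in the annotation lay on 19 chromosomes, 14 of them on chromosome 7 and 4 on X.

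The annotated start sites were searched for the pyrimidine runs known from this class of mRNA. RefSeq start windows for the build GRCm38.p6 were found for 60 of the 81 members. Of these, 37 (61.7%) had a run of 6 or more C or T on the strand of the gene within 15 bases on either side of the start, where 32.7% of 27025 genes did. As 21 members had no entry, under 80% of them were covered and a comparison of these shares is void. The windows below were picked to show long runs, set in capitals. They are those of Rps10 (chr17:27635230-27635259, minus strand), which was called higher at E16.5, and of Rpl35 (chr2:39005117-39005146, minus strand), Rpl7a (chr2:26910792-26910821, plus strand) and Rpl28 (chr7:4792950-4792979, plus strand), which were not.

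Rps10: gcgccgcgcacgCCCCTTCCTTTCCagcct
Rpl35: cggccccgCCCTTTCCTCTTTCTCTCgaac
Rpl7a: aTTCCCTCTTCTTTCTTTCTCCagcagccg
Rpl28: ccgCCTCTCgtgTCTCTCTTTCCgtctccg

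These genes shared the run but not the level. Rpl35, near the exit of the tunnel, had 0, 24.96 and 243 FPKM in adult and 32.7, 145 and 127 at E16.5 (adjusted p = 0.415), with its highest value in the shallowest adult library, while Rpl28 was listed at 0 in all 6.

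Other genes of the ribosome and of its control were described from lists chosen with earlier results known. Among 10 tested genes next to the rule, 2 (20%) were higher at E16.5, beside 8.83% of all genes tested, with Rpl22l1 (above) among them. The adult libraries lay below all E16.5 libraries in 9 (90%), beside 31.0% of all genes. The median change of the 10 was -2.93, or -2.07 relative to that of all genes. Rps3a1, a small subunit gene whose symbol the rule leaves out, had 0, 16.2 and 3.53 FPKM in adult and 85.0, 96.3 and 20.7 at E16.5 (adjusted p = 0.0650). Gnb2l1, the scaffold Rack1 on the small subunit, had 111, 32.9 and 12.1 FPKM in adult and 222, 231 and 186 at E16.5 (adjusted p = 0.0584). Both lay without overlap on the side of the members but missed the threshold.

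Of 17 translation factors and other genes known for the same start run, 4 (23.5%) were higher at E16.5, beside 8.83% of all genes tested, and 0 in adult. Their median change was -1.42, or -0.56 relative to the median of all genes, and 0 had a positive change. Eef1a1, the abundant elongation factor that brings aminoacyl-tRNA, had 152, 274 and 232 FPKM in adult and 610, 564 and 479 at E16.5 (-1.36, adjusted p = 0.0291). Eef1g, a subunit of its exchange factor, had 0, 1.57 and 0 FPKM in adult and 31.2, 23.4 and 30.8 at E16.5 (-4.41, adjusted p = 0.0108). Tpt1 and Vim, which are no translation factors in the strict sense, were the other calls. Eef2, which moves the ribosome along the mRNA, had 202, 275 and 240 FPKM in adult and 384, 393 and 420 at E16.5, without overlap, and was not called (-0.75, adjusted p = 0.0754).

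Genes of ribosome biogenesis had a median change of -1.33, with 6 of 51 tested higher at E16.5 and 0 in adult, and adult below all E16.5 libraries in 24 of 51. The share called, 11.8%, stood beside 8.83% of all genes, and the share without overlap, 47.1%, beside 31.0%. Ncl, the major nucleolar protein, had 59.8, 80.4 and 78.8 FPKM in adult and 268, 257 and 318 at E16.5 (-1.94, adjusted p = 0.00791). Nhp2, of the pseudouridylation complex, had 0, 11.8 and 0 FPKM in adult and 43.9, 48.9 and 39.7 at E16.5 (-4.27, adjusted p = 0.0398). In the mTORC1 and MYC list 0 of 19 tested genes were called by limma in either direction, with 4 at an unadjusted p under 0.05, all higher at E16.5, and the median change of -1.11 was near that of all genes. Mtor had 22.8, 21.1 and 26.2 FPKM in adult and 12.9, 8.50 and 22.4 at E16.5 (+0.74, adjusted p = 0.317). Larp1, which binds the start run, had 62.3, 61.5 and 42.7 FPKM in adult and 37.4, 46.1 and 51.2 at E16.5 (+0.29, adjusted p = 0.554). Both overlapped between the ages. For the 76 mitochondrial ribosomal proteins tested the median change was -2.16, close to that of the large cytosolic subunit, with 9 higher at E16.5 (11.8%) and 0 in adult.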

How the data were processed

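The 6 TRAP-seq libraries were assigned to an age by their labels. The authors aligned single-end reads of 50 bases to mm10 with STAR (2.4.0 in the submitters' processing notes) and used Cuffquant, part of Cufflinks, for the deposited FPKM values, which are fragments per kilobase, relative to the reads mapped. The annotation used there is not given in the sources used here, and the study's read counts were not analysed here.

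No rescaling was applied to the FPKM. The 11601 genes with a mean above 1 entered limma 3.58.1 (R 4.3.3) as log2(FPKM + 1), with an intensity trend, no covariate, and p adjusted by Benjamini-Hochberg over all of them at a threshold of 0.05. Each change is the adult mean less the E16.5 mean, and on this scale it understates the change of low genes. Depth was estimated from 35 to 63 low values per library in 2520 genes, of which 65.1% to 82.1% lay within 0.1 of a whole read. Reads carry no molecular identifiers. Shared stretches were counted in GENCODE transcripts of mm10, with 1 transcript per member searched against all transcripts of other genes. Genes overlapping a member and copies without annotation were not counted, and Rps4l had no match.

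Members and lists were chosen with earlier results of these data known. The rule for named genes took Rpl10a, the stalk, the 5S pair, Rps27a, Rpsa, Rps6, the paralogue pairs, the 5 largest calls and 3 highest members per subunit, members at 0 and those of extreme adult spread. The remaining calls, and genes shown for their sequence, their low values or beside the members, were named after their values were seen. Some genes are not reported here by name or figure, though the counts include them. Alternatives changed the pseudocount, filter, scaling, variance model, replicate block and libraries. Python 3.11.15, pandas 2.3.3, numpy 2.4.6 and matplotlib 3.10.9 were used.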

Additional observations from a re-analysis of the deposited data

How the results depend on the processing

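The direction of both medians was negative under all 16 alternatives, and 0 members were called higher in adult under any of them, where limma gave 0 members at an unadjusted p under 0.05 in the reported fit. The number of members called higher at E16.5, 14 in the report, was 11 with a pseudocount of 0.1 or 0.01, 10 without a filter, 11 with median-ratio scaling, 18 with equal sums without Mir6236 and 10 with quantile normalization. It moved to 7 of 25 with genes above 0 in every sample, to 36 with each library rescaled to the same sum of FPKM and to 9 without a trend. The share of all genes called higher at E16.5 was 8.83% in the report, 7.44% and 6.57% with these pseudocounts and 5.43% without a filter. It was 5.70% with median-ratio scaling, 11.5% with equal sums without Mir6236, 4.3% with quantile normalization and 8.18% without a trend. With genes above 0 in every sample it was 6.87%, and with the same sum 28.05%. Leaving out 1 library gave 0 to 21 members (1, 0 and 1 without E16.5 replicates 1, 2 and 3) and 0.14% to 14.7% of all genes, with fewer samples in the fit. The large-subunit median of -2.18 was -3.19 and -4.03 with pseudocounts of 0.1 and 0.01, -2.85 with the same sum and -1.55 with quantile normalization, and -2.41 to -1.86 when 1 library was left out. The small-subunit median of -2.87 was -3.69 and -5.67 with these pseudocounts, -2.31 without a filter, -2.06 with genes above 0 in every sample, -3.40 with the same sum, -2.01 with quantile normalization, and -3.03 to -2.37 when 1 library was left out. The gap between the subunits was 1.65 with a pseudocount of 0.01 and 0.12 with genes above 0 in every sample, and the cause was not tested beyond the genes that these settings leave in. Under scaling the median of all genes ran from -1.47 (same sum) to 0.01 (quantile normalization), and the subunits stayed below it, by 1.28 to 1.56 and by 1.93 to 2.03. Among named genes, Rpl3 turned positive with median-ratio scaling (0.04) and quantile normalization (1.14), and ran from -1.07 to 0.55 when 1 library was left out, Rpl32 then ran from -1.16 to 0.25, and Rpl10a from -0.15 to 1.67, with -0.21 at a pseudocount of 0.01. None of these was called. Replicate numbers do not pair the samples, as deviations of same-numbered libraries had correlations of 0.00089, 0.044 and 0.015 over the genes tested. With the replicate block 11 members were called, all among the 14, beside 3.90% of all genes called higher at E16.5. Low adult values rest on few reads, as adult replicate 3 was exceeded in depth 1.26 and 2.86 times by adult replicates 1 and 2 and 4.02 to 5.08 times by the E16.5 libraries.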
